A study of Mus musculus with 12 samples.

Results

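Fut2 and 7 further enzymes that build the sugar chains of the gut surface were followed in mouse jejunum after loss of a centrosome gene. The 8 genes were taken by name: the fucosyltransferases Fut2, Fut4 and Fut8, the core enzymes C1galt1 and Gcnt3, the galactosyltransferase B3galt5, the N-acetylgalactosaminyltransferase B4galnt2 and the sialyltransferase St6galnac1. Each had 1 probe set with that symbol alone, so all 8 were measured among 19938 genes. The series compared whole jejunum of wild-type mice (WT) with that of mice carrying an inducible knockout (KO) of Fgfr1op, listed here under its current symbol Cep43, at days 6, 9 and 12 on a scale labelled post-tamoxifen. Each of the 6 groups (WT at day 6, 9 or 12 and KO at day 6, 9 or 12) held 2 mice, with 1 array per mouse. Tamoxifen, the drug that sets off the gene ablation, was given intraperitoneally (75 mg/kg) on 5 days in a row, per the labels' protocols. The promoter that drives the recombinase, the deleted exons, the strain, the age of the mice and whether WT mice were injected are not stated in the labels, so effects of the drug and of the recombinase cannot be told apart from those of gene loss.

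Mucus and brush border proteins of the intestine carry O-linked chains that start from a single N-acetylgalactosamine. C1galt1 adds galactose to it and forms the core on which most chains grow, and Gcnt3 adds a branch to that core. Chains are finished at their ends: Fut2 adds the fucose that makes H antigen, food and anchor for gut microbes, B4galnt2 adds the N-acetylgalactosamine of the Sd(a) epitope, and St6galnac1 caps an early chain with sialic acid. Fut8 works on another class, the N-linked chains, to whose innermost sugar it adds fucose. Epithelial Fut2 is known to be induced by microbes through interleukin 22 from innate lymphoid cells.

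Measurements are log2 signals of a one-colour array, so a difference of 1 is a doubling of signal. A difference was called at an adjusted p under 0.05 in limma's moderated test over all genes. The array medians lay between 5.95 and 6.02, and both arrays of each group correlated with each other at 0.992 to 0.997 over genes. Cep43 itself was lower in KO averaged over days (log2 -0.26, SE 0.06, adjusted p = 0.00713) and called at day 9 alone (-0.39, adjusted p = 0.0184), a weak check of the labels because the probe set may lie outside the deleted part. Jejunal enterocyte genes had high signals in WT, with Fabp2 at 13.4 and Sis at 13.2 at day 6. RNA came from whole tissue, so fewer cells of a type and less RNA per cell cannot be told apart in any value below. Only day and genotype are known for the mice. Each limma p-value rests on 1 spread per gene, pooled between mice over the 6 groups and moderated over all genes. A wide gap between the mice of 1 group therefore affects the tests of every day.

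**Figure D1:**
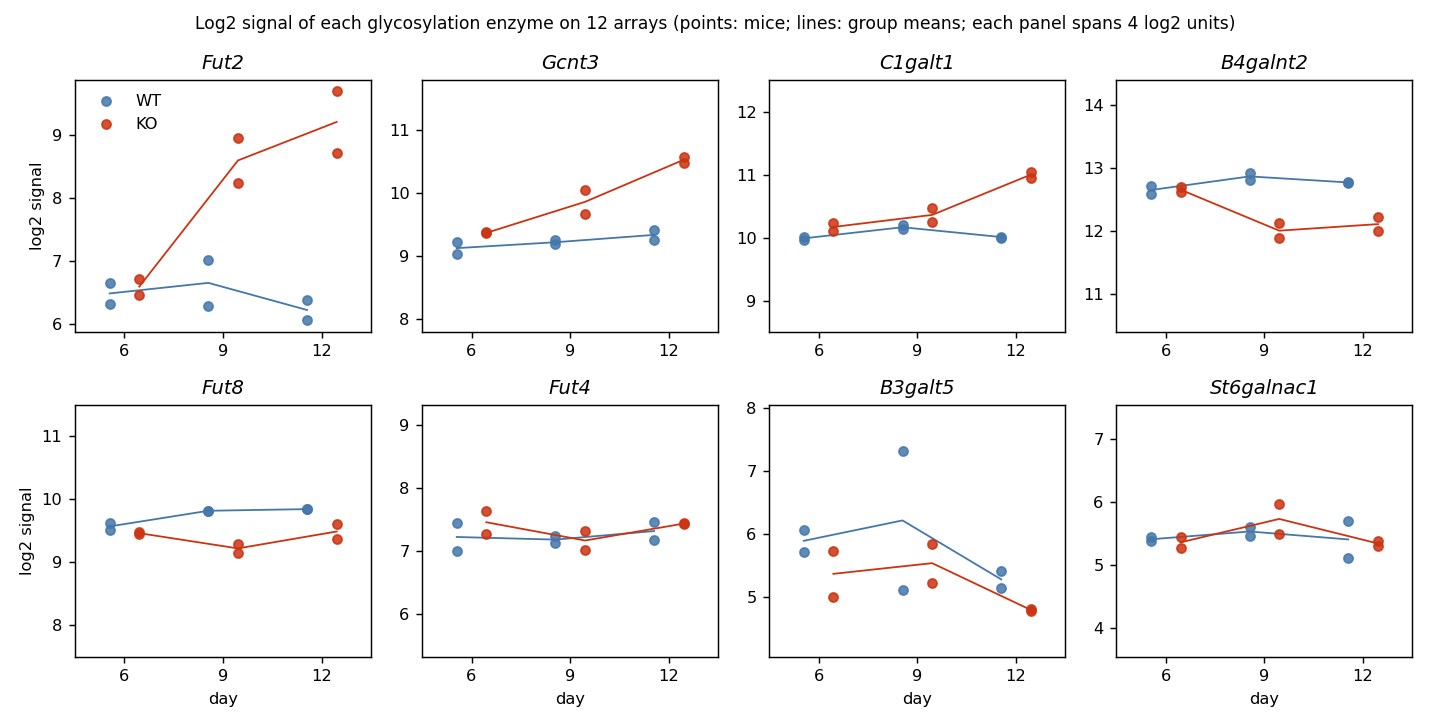
Log2 signal (vertical axis) of the 8 enzymes by day (horizontal axis), with 1 point per mouse, WT in blue, KO in red, and lines through group means; every panel spans the same range of log2 units. Fut2 lies between 6.06 and 7.01 in WT and reaches 8.24 to 9.70 in KO at days 9 and 12, while the points of Fut4 and St6galnac1 are mixed at each day.

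Fut2 rose in KO, late and by the widest margin of the 8 enzymes. In WT its log2 signals were 6.31 and 6.65 at day 6, 7.01 and 6.29 at day 9, and 6.38 and 6.06 at day 12. In KO they were 6.46 and 6.72 at day 6, 8.24 and 8.95 at day 9, and 9.70 and 8.72 at day 12. The genotypes overlapped at day 6, and at days 9 and 12 both KO mice lay above every WT mouse of any day. KO minus WT was 0.11 (SE 0.33, adjusted p = 0.955) at day 6. It was 1.95 at day 9, a 3.85-fold higher signal (SE 0.33, adjusted p = 0.00100), and 2.99 at day 12, 7.93-fold higher (SE 0.33, adjusted p = 4.00e-05). The genotype difference itself changed between days (moderated F test of genotype by day, adjusted p = 0.00424). It grew by 1.84 from day 6 to day 9 (SE 0.46, adjusted p = 0.0246), whereas the further step of 1.04 from day 9 to day 12 (SE 0.46, adjusted p = 0.217) did not pass. The 2 KO mice of day 12 were 0.98 apart.

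Gcnt3, the branching enzyme of mucin cores, rose with a smaller and steadier slope. Its WT signals were 9.03 and 9.23 at day 6, 9.26 and 9.19 at day 9, and 9.43 and 9.26 at day 12. The KO signals were 9.36 and 9.38 at day 6, 9.68 and 10.05 at day 9, and 10.49 and 10.58 at day 12. Both KO mice lay above both WT mice on each day, also at day 6, where the difference of 0.24 (SE 0.13, adjusted p = 0.507) was not called. KO was 1.56-fold higher at day 9 (log2 0.64, SE 0.13, adjusted p = 0.00262) and 2.29-fold higher at day 12 (log2 1.19, SE 0.13, adjusted p = 2.93e-05). Within KO the signal rose from day 6 to day 9 by 0.49 (adjusted p = 0.0158) and from day 9 to day 12 by 0.67 (adjusted p = 0.00424). The genotype difference changed between days (adjusted p = 0.0101). Its call at day 9 ended when signals were taken relative to general epithelial genes (0.28, adjusted p = 0.195). The mean of those genes was itself higher in KO at day 9, so this scale lowers every difference of that day.

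C1galt1, which builds the core that Gcnt3 branches, was called higher at day 12 alone with the main settings. WT signals were 9.97 and 10.01, 10.20 and 10.14, and 10.01 and 10.02 at days 6, 9 and 12. KO signals were 10.23 and 10.12, then 10.25 and 10.48, then 10.96 and 11.05. Both KO mice lay above both WT mice on each day. KO minus WT was 0.18 at day 6 and 0.20 at day 9 (SE 0.10 each, adjusted p = 0.528 and 0.161). At day 12 KO was 1.99-fold higher (log2 0.99, SE 0.10, adjusted p = 1.75e-05). The genotype difference moved by 0.80 from day 9 to day 12 (SE 0.14, adjusted p = 0.0100). For Gcnt3 the same step was 0.55 (SE 0.18, adjusted p = 0.0949). The day 9 value passed with quantile normalisation (0.28, adjusted p = 0.0452) and turned to -0.16 (adjusted p = 0.421) relative to general epithelial genes. C1galt1c1, the chaperone without which C1galt1 does not fold, rose at day 12 by 0.58 (SE 0.09, adjusted p = 3.61e-04) and was picked here after its value was seen.

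B4galnt2 fell. Its WT signals were 12.71 and 12.59 at day 6, 12.82 and 12.92 at day 9, and 12.78 and 12.77 at day 12. The KO signals were 12.69 and 12.62 at day 6, inside the WT range, then 11.89 and 12.12 at day 9 and 12.01 and 12.22 at day 12. All 4 late KO values lay below all 6 WT values. KO was 1.82-fold lower at day 9 (log2 -0.86, SE 0.11, adjusted p = 1.35e-04) and 1.58-fold lower at day 12 (log2 -0.66, SE 0.11, adjusted p = 7.79e-04), after a difference of 0.01 at day 6 (adjusted p = 0.993). The genotype difference moved by -0.87 from day 6 to day 9 (SE 0.15, adjusted p = 0.00448) and by 0.20 from day 9 to day 12 (SE 0.15, adjusted p = 0.492). It changed between days over all 3 (adjusted p = 0.00594).

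Fut8, the core fucosyltransferase of N-linked chains, fell by a smaller amount. WT signals were 9.62 and 9.5 at day 6, 9.81 in both mice at day 9, and 9.83 and 9.84 at day 12. KO signals were 9.47 and 9.44, 9.28 and 9.14, and 9.61 and 9.36 at the same days. Both KO mice lay below both WT mice on each day. KO was 1.51-fold lower at day 9 (log2 -0.60, SE 0.10, adjusted p = 0.00109) and 1.28-fold lower at day 12 (log2 -0.36, SE 0.10, adjusted p = 0.0227), while the day 6 difference of -0.11 (SE 0.10, adjusted p = 0.799) was not called. The day 12 call ended without either WT mouse of that day (-0.36 and -0.35, adjusted p = 0.0885 and 0.0975), without KO replicate 2 of that day (-0.23, adjusted p = 0.148), or with that day's 4 arrays alone (adjusted p = 0.0970). The test of genotype by day did not pass (adjusted p = 0.0804), although the step from day 6 to day 9 did (-0.49, SE 0.14, adjusted p = 0.0470).

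Fut4, B3galt5 and St6galnac1 passed in no comparison with the main settings. Fut4, which adds the fucose of Lewis x, ran from 7.0 to 7.46 in WT and from 7.02 to 7.63 in KO. Its KO minus WT values were 0.23, -0.01 and 0.12 at days 6, 9 and 12 (SE 0.17), with 95% intervals of -0.14 to 0.61, -0.39 to 0.36 and -0.25 to 0.49. St6galnac1 ran from 5.11 to 5.71 in WT and from 5.28 to 5.98 in KO, with differences of -0.05, 0.20 and -0.06 (SE 0.19). Its 95% intervals were -0.46 to 0.36, -0.21 to 0.61 and -0.48 to 0.35. Their WT and KO values overlapped at every day.

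B3galt5, which builds type 1 chains, was the least settled of the 8. WT signals were 6.06 and 5.72 at day 6, 7.32 and 5.12 at day 9, and 5.41 and 5.15 at day 12. KO signals were 5.0 and 5.73, 5.23 and 5.84, and 4.80 and 4.78. The WT mouse at 7.32 stood 2.20 above the other WT mouse of its day, and at day 12 both KO mice lay below both WT mice. Differences were -0.52, -0.68 and -0.49 at days 6, 9 and 12 (SE 0.52, adjusted p = 0.810, 0.368 and 0.573), with an interval at day 9 of -1.82 to 0.46. Without the WT mouse at 7.32 the day 9 difference turned to 0.42 (adjusted p = 0.379), and without its partner it was -1.78 (adjusted p = 0.00254), so the direction at day 9 rested on 1 array. The day 12 value passed with that day's 4 arrays alone (-0.49, adjusted p = 0.0372). The average over days was -0.56 (adjusted p = 0.187), and it passed without WT replicate 2 of day 9 (-0.93, adjusted p = 0.00113) and relative to general epithelial genes (-0.78, adjusted p = 0.0269). Several signals of B3galt5 and St6galnac1 lay under 5.3, the level below which no fold is given here because no array background was tested.

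**Figure D2:**
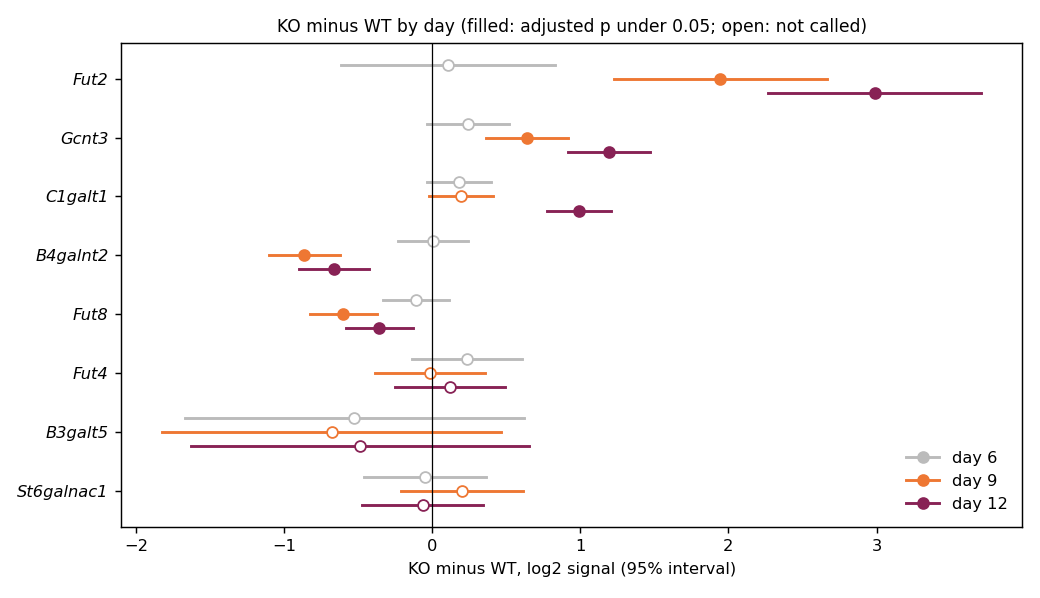
KO minus WT on the log2 scale (horizontal axis) for each enzyme, with 95% intervals from the fit; grey is day 6, orange day 9 and purple day 12, and filled points were called. All 8 points of day 6 are open, and at day 12 Fut2 stands at 2.99, Gcnt3 at 1.19, C1galt1 at 0.99, B4galnt2 at -0.66 and Fut8 at -0.36.

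Both KO arrays lay on one side of both WT arrays for 3 of 8 enzymes at day 6 (44.6% of all genes), 5 of 8 at day 9 (65.8%) and 6 of 8 at day 12 (58.2%). By the test, 0 of 8 were called at day 6, when 1.03% of all genes were. At day 9, 2 of 8 were higher and 2 of 8 lower, beside 12.6% and 17.1% of all genes (29.7% in either direction). At day 12, 3 were higher and 2 lower, beside 13.7% of all genes each way (27.3% in either direction). Averaged over days, 3 were higher (15.7% of all genes) and 2 lower (16.9%), together 5 (32.6%). They were the same enzymes as at day 12: Fut2 (1.68, SE 0.19), Gcnt3 (0.69, SE 0.07) and C1galt1 (0.46, SE 0.06) higher, and B4galnt2 (-0.51, SE 0.06) and Fut8 (-0.35, SE 0.06) lower. Exact permutation tests of the genotype labels within days, two-sided, gave p = 0.00926 for Gcnt3, C1galt1 and Fut8, the smallest such a test can give, p = 0.0185 for Fut2 and p = 0.0370 for B4galnt2. Relative to general epithelial genes C1galt1 was no longer called on average (0.23, adjusted p = 0.0561). The genotype by day test called 4 members (18.5% of all genes), namely Fut2, Gcnt3, C1galt1 and B4galnt2, and the same 4 changed over days within KO (37.6% of all genes). Single steps of the genotype difference passed for 3 members from day 6 to day 9 (12.7% of all genes), 1 from day 9 to day 12 (6.08%) and 4 from day 6 to day 12 (13.2%). Within KO alone the same steps passed for 3 (24.5%), 2 (22.9%) and 4 members (23.3%). Within WT 0 of 8 changed over days (0.0201% of all genes). The median of the 8 differences was 0.06, 0.09 and 0.03 at days 6, 9 and 12, beside 0.00, 0.02 and 0.02 for all genes, with calls in both directions.

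For a closer view of 2 called enzymes that went opposite ways, the 250 bases before the transcription start were read from RefSeq (GRCm38.p6), which held windows for 5 of the 8 genes: B3galt5, B4galnt2, C1galt1, Fut4 and Fut8. Letters run 5′ to 3′ on the strand of the gene, with matches to the motifs searched in capitals. The B4galnt2 window is chr11:95914872-95915121 on the minus strand, and that of C1galt1 is chr6:7844974-7845223 on the plus strand.
B4galnt2: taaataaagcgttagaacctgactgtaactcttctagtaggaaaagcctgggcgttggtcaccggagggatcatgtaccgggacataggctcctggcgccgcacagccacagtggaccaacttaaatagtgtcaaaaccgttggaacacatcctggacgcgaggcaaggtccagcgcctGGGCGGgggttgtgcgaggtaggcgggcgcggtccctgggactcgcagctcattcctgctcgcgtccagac
C1galt1: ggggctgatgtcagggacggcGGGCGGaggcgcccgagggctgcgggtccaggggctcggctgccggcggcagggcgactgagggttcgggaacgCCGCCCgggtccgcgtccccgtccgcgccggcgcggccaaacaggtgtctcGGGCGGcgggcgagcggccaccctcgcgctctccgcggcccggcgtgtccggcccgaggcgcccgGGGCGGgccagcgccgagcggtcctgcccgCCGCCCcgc
Searched on both strands were the GC box GGGCGG, bound by Sp and KLF factors, the CCAAT box CCAAT, the TATA box TATAAA, the STAT site TTCNNNGAA and the hypoxia element core ACGTG. The B4galnt2 window held 1 GC box and the C1galt1 window 5, and neither held any of the other 4 motifs. At least 1 GC box occurred in 32.7% of 32851 windows of the same length, a CCAAT box in 33.8%, a TATA box in 12.4%, a STAT site in 7.02% and the hypoxia core in 16.6%. The share of G and C was 58.4% for B4galnt2 and 82.8% for C1galt1, against a median of 52.4%, and 99.5% of windows had a lower share than C1galt1. These matches describe the letters only.

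Among the other fucosyltransferases, Fut11 rose in KO at day 9. Its mean signal went from 7.95 in WT to 9.79 in KO at day 9 (1.84, SE 0.23, adjusted p = 1.48e-04), while KO minus WT was 0.18 (adjusted p = 0.651) at day 12. Of 7 measured genes of that list it was the 1 call at day 9, and 0 were called at day 12. Over all genes 12.6% were higher and 17.1% lower at day 9, and 13.7% each way at day 12. Sec1, the paralogue of Fut2, stood at 0.29 (adjusted p = 0.0675) at day 9 and 0.22 (adjusted p = 0.170) at day 12. The supply of GDP-fucose, which all fucosyltransferases consume, moved in both directions: of 12 genes 2 rose and 4 fell at day 9, and 1 rose and 2 fell at day 12 (medians -0.16 and -0.21). Gmds, which starts GDP-fucose synthesis from GDP-mannose, rose by 0.67 at day 9 and by 0.95 (SE 0.16, adjusted p = 0.00108) at day 12. Mpi, which feeds mannose phosphate from glycolysis, fell at those days (-0.89 and -1.09), and so did the transporter family member Slc35c2 (-0.78 and -0.77).

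Initiating and core enzymes also held calls both ways, as did all genes (12.6% higher and 17.1% lower at day 9, 13.7% each way at day 12). Of 15 polypeptide GalNAc transferases, which place the first sugar, 2 rose and 5 fell at day 9 and 3 rose and 2 fell at day 12 (medians -0.12 and -0.10). Galnt3 rose (0.97 and 0.94) and Galnt5 fell (-1.14 and -0.82) at both days, Galnt7 fell at day 9 (-0.90) and Galnt4 rose at day 12 (0.67). Of 14 core and branching enzymes 3 rose and 3 fell at day 9, and 5 rose and 3 fell at day 12 (medians -0.16 and 0.14). B3gnt7, which extends N-acetyllactosamine chains, rose by 0.96 at day 9 and by 2.19 (SE 0.15, adjusted p = 1.03e-06) at day 12. Gcnt4, a branching enzyme of the same family as Gcnt3, fell, with means of 10.66 in WT and 7.82 in KO at day 9 (-2.84, SE 0.41, adjusted p = 3.31e-04) and a difference of -2.33 at day 12, which was -1.46 without KO replicate 1 of that day and -3.19 without KO replicate 2, both still called. Gcnt3 rose and Gcnt4 fell at both late days. A4gnt, which caps gastric-type mucin chains, fell at both (-0.80 and -1.05).

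Terminal enzymes also held calls in both directions. The shares of all genes were 12.6% higher and 17.1% lower at day 9, and 13.7% each way at day 12. Of 4 N-acetylgalactosaminyltransferases beside B4galnt2, B4galnt3 rose (0.81 and 0.70 at days 9 and 12), B4galnt4 fell (-0.74 and -1.19) and Gbgt1 fell at day 9 (-0.62); the day 9 call of B4galnt3 ended relative to general epithelial genes (0.45, adjusted p = 0.0612). Of 12 galactosyltransferases 3 rose and 1 fell at day 9. Relative to general epithelial genes all 3 rises lost their call, A4galt at 0.31 (adjusted p = 0.248), B4galt4 at 0.19 (adjusted p = 0.305) and B4galt3 at 0.13 (adjusted p = 0.479), and A4galt (0.66) lost it also without WT replicate 1 (0.56, adjusted p = 0.181), WT replicate 2 (0.77, adjusted p = 0.0775) or KO replicate 1 (0.28, adjusted p = 0.330) of that day. At day 12 B4galt4 rose (0.96, SE 0.11) and B4galt5 fell (-0.64, SE 0.11). B4galt5 was also the fall of day 9 (-0.39, adjusted p = 0.0246). Of 19 sialyltransferases 1 rose and 6 fell at day 9, and 2 rose and 5 fell at day 12 (medians -0.04 and -0.07). St3gal4, which caps galactose with sialic acid, fell from 12.42 in WT to 9.85 in KO at day 12 (-2.57, SE 0.10, adjusted p = 2.14e-08), after -0.73 at day 9. St6galnac6 (1.09, SE 0.24) and St8sia6 (0.96, SE 0.13) rose at day 12. St6galnac6 stood at 0.62 without KO replicate 1 of that day and at 1.56 without KO replicate 2. St8sia6 had been lower in KO at day 9 (-0.40, SE 0.13, adjusted p = 0.0428). St8sia4 fell at both days (-0.70 and -0.64), and St3gal6 fell at day 9 (-1.02).

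Of 12 genes that make and clear sialic acid, 3 rose and 6 fell at day 9, and 2 rose and 6 fell at day 12 (medians -0.37 and -0.31). The rises were Cmas (0.76 and 1.11) and Neu1 (0.39 and 0.94) at both days, and Nans (0.46) at day 9. Over all genes 12.6% rose and 17.1% fell at day 9, and 13.7% each at day 12. Siae, which removes acetyl groups from sialic acid, fell at days 9 and 12 (-3.0 and -2.23, SE 0.11). Npl, the lyase that breaks sialic acid down, fell at the same days (-1.84 and -2.75). Gne, the entry enzyme of sialic acid synthesis, fell at both days (-1.09 and -0.74). Cmah, which turns the acetyl form into the glycolyl form, did so too (-0.92 and -1.6). Npl was also the only one of 129 measured glycosylation genes outside the 8 that was called at day 6 (-0.68, SE 0.14, adjusted p = 0.0478). That call ended with arrays centred on their medians (-0.66, adjusted p = 0.0647), with the replicate block (adjusted p = 0.0623) and without any single array of days 6 or 9, with values from -0.75 to -0.62.

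Genes for sugar donors, sulphate and N-linked chains held calls in both directions as well. Of 11 genes for galactose and hexosamine supply 1 rose and 5 fell at day 9, and 4 rose and 4 fell at day 12. The UDP-N-acetylglucosamine transporter Slc35a3 fell at both days (-1.14 and -0.74), as did Uap1 of the hexosamine route (-0.83 and -0.71). Pgm3 of that route fell at day 9 (-0.79). Slc35d1 rose at both days (0.51 and 0.80), and Gnpnat1 rose at day 12 (1.14). Of 11 sulphation genes 2 rose and 1 fell at each late day. Chst4, a sulphotransferase of N-acetylglucosamine, rose by 1.00 and 1.35, and Papss1, which makes the sulphate donor, fell (-1.75 and -1.36). Of 12 N-glycan branching enzymes 2 rose and 4 fell at day 9, and 2 rose and 3 fell at day 12. Mgat3, which adds the bisecting sugar, fell (-1.12 and -0.89), as did the mannosidase Man1a (-0.98 and -0.59) and Mgat4a (-0.90 and -0.84). Mgat4b rose by 1.18 at day 9. In all, 21 of the 129 rose and 37 fell at day 9 (45% called, beside 29.7% of all genes), and 23 rose and 28 fell at day 12 (39.5%, beside 27.3%), with medians of -0.04 and 0.00. The day 9 counts ran from 13 to 23 rises and from 29 to 40 falls with 1 array left out, and were 6 rises and 61 falls relative to general epithelial genes.

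**Figure D3:**
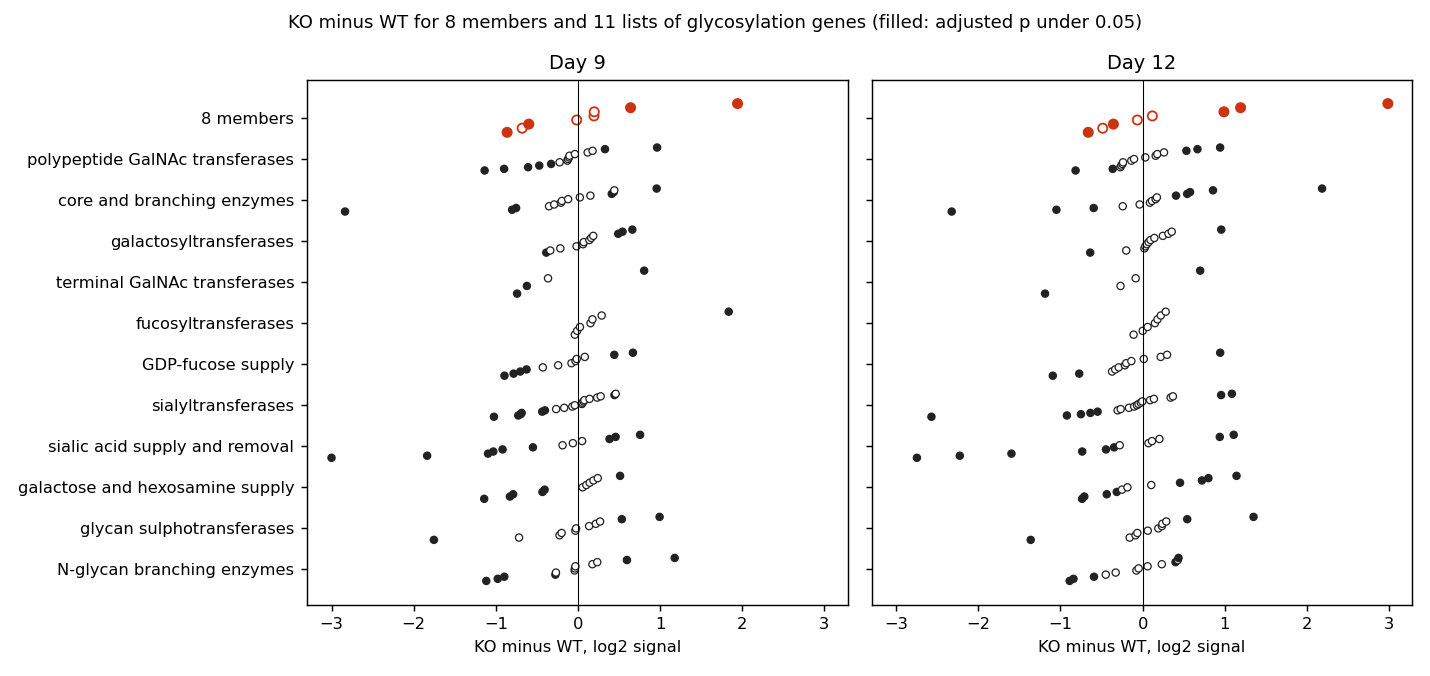
KO minus WT on the log2 scale (horizontal axis) at day 9 (left) and day 12 (right), 1 point per gene, for the 8 enzymes (red) and 11 lists of glycosylation genes (black); filled points were called. Points lie on both sides of 0 in nearly every list, with Fut2 farthest right at 2.99 on day 12 and Siae farthest left at -3.0 on day 9.

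A list for the interleukin 22 and lymphotoxin route, which is known to induce Fut2, had 15 measured genes. They included Il10 and Il10ra of interleukin 10 signalling, which were called at no day. Of the 15 genes, 1 rose and 2 fell at day 9, and 0 rose and 4 fell at day 12 (medians -0.04 and -0.15). Over all genes 29.7% were called at day 9 and 27.3% at day 12, so the counts are not read as a result about the route. Il10rb, a subunit of the interleukin 22 receptor, fell at day 9 (-0.77, SE 0.12, adjusted p = 6.66e-04) and day 12 (-0.68). Socs3, a target and brake of STAT3, stood at 0.04 (adjusted p = 0.854) at day 9 and fell at day 12 (-0.86, SE 0.13, adjusted p = 4.81e-04). Stat3 stood at -0.25 and -0.02 (adjusted p = 0.125 and 0.935), and Ltb, a lymphotoxin subunit, at 0.56 and -0.59 (adjusted p = 0.270 and 0.267). Il22ra1, the other receptor subunit, fell at day 9 (-0.47, adjusted p = 0.0121), a call that ended without WT replicate 1 (-0.41, adjusted p = 0.0875) or KO replicate 1 (-0.40, adjusted p = 0.0909) of that day, and stood at 0.04 at day 12. Il22ra2, the decoy receptor, differed by -0.99 at day 12 (adjusted p = 0.0123), with a KO mean of 4.43; that call ended without WT replicate 2 (-0.89, adjusted p = 0.0847) or KO replicate 1 (-0.70, adjusted p = 0.103) of day 12. Reg3g, an antimicrobial lectin under interleukin 22, fell at day 12 (-0.88, adjusted p = 0.0450). That call ended without any 1 of the 6 WT arrays, with values from -1.05 to -0.71, and without KO replicate 2 of day 12 (-0.39). Reg3b of the same list went the other way at day 12 (0.61, adjusted p = 0.110) and was not called. Both its KO arrays lay above both WT arrays of that day, after a difference of -0.15 (adjusted p = 0.708) at day 9. The rise of Il23a at day 9 (0.39, adjusted p = 0.0447) had means of 4.5 and 4.90 and ended relative to general epithelial genes (0.036, adjusted p = 0.867), with the replicate block (0.39, adjusted p = 0.0688), with quantile normalisation or median centring (0.37 each, adjusted p = 0.0683 and 0.0627) and without any 1 of 7 arrays (0.26 to 0.46). Il22 had no probe set with its symbol alone and was not analysed here.

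Of 11 measured genes of the mucins, the proteins that carry these chains, 2 rose at day 9 and 1 at day 12, and 0 fell, beside 29.7% and 27.3% of all genes called. Muc2, the main secreted mucin, stood at -0.07, 0.17 and 0.12 at days 6, 9 and 12 (SE 0.13, adjusted p = 0.927, 0.368 and 0.599). Muc3, a transmembrane mucin of the brush border, rose by 0.60 at day 9 and by 1.03 (SE 0.14, adjusted p = 1.81e-04) at day 12; its day 9 call ended without KO replicate 2 of that day (0.46, adjusted p = 0.0550) and relative to general epithelial genes (0.25, adjusted p = 0.235). Muc4 rose at day 9 (1.07, adjusted p = 0.00628), which ended without WT replicate 2 (0.92, adjusted p = 0.0591) or KO replicate 2 (0.82, adjusted p = 0.0538) of that day. Among 10 lectins that read glycans, 1 rose and 3 fell at day 9 and 2 rose and 1 fell at day 12. Lgals1, a galectin of stroma, rose by 1.57 and 1.44, calls that ended without KO replicate 1 of the day in question (1.16 and 0.80, adjusted p = 0.0635 and 0.0584). Itln1, an intelectin of goblet and Paneth cells, fell at day 12 (-1.26).

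Cell type markers moved beside these results, and their part in them was not tested. The counts below stand beside 1.03% of all genes called at day 6. Of all genes 12.6% were higher and 17.1% lower at day 9, and 13.7% each way at day 12. Goblet cell markers, the cells that secrete mucus, had array means relative to the WT average of -0.07 to 0.08 in WT, -0.04 to 0.08 in KO at days 6 and 9, and -0.38 to 0.03 in KO at day 12. Of 8 goblet genes 0 were called at day 9, and at day 12 Tff3 rose (0.73) while Clca1 (-0.75) and Ang4 (-1.49) fell. Ang4 also belongs to the Paneth list below and is counted in both. The enterocyte list was lower, at -1.35 to -1.24 in KO at day 9 and -1.83 to -1.40 at day 12 against -0.14 to 0.09 in WT, with 7 and 8 of 11 genes falling and 1 rising at day 12. The crypt stem cell list reached -1.63 to -1.61 and -2.06 to -2.03, with 5 and 6 of 6 falling. The general epithelium list stood at 0.45 to 0.50 in KO at day 9 against -0.16 to 0.12 in WT. At day 12 it stood at -0.04 to 0.30 in KO. Of its 8 genes 3 rose and 1 fell at day 9 and 2 rose and 2 fell at day 12. The 3 rises of day 9 were the keratins Krt18 (1.71), Krt8 (0.84) and Krt19 (0.37). Tjp3 fell (-0.48), and Epcam (-0.05), Cdh1 (0.19), Cldn7 (0.36) and Elf3 (-0.08) were not called. Values taken relative to this list thus also carry the keratin rise. Taken relative to that list, on which scale the median of all genes was -0.33 at day 9 in place of 0.02, Fut2 was higher by 1.59 and 2.85 at days 9 and 12 and B4galnt2 lower by 1.22 and 0.80 (log2 -1.22 and -0.80), each still called. The smooth muscle list was lower in KO at day 6 (-1.30 to -1.11 against -0.07 to 0.61 in WT of that day), with 1 of 10 genes called, overlapped WT at day 9, and lay above WT at day 12 (0.25 to 0.85 against 0.06 to 0.16) with 0 of 10 called. The T cell and innate lymphoid list was at -0.80 to -0.43 in KO at day 9 and -1.34 to -1.06 at day 12, against -0.39 to 0.25 in WT. Of its 6 genes 3 fell at day 9 and 4 at day 12. In KO the fibroblast list was at 0.43 to 0.59 at day 9 and 0.60 to 0.79 at day 12. The macrophage list was at 0.37 to 0.43 and 0.25 to 0.37. Of 4 neutrophil genes 3 rose at day 9 and 0 at day 12. Among the 3, S100a8 (means of 4.13 in WT and 4.82 in KO) and Cxcr2 (3.87 and 4.28) lay under 5.3. S100a9 stood at 5.51 and 6.07. Of 6 Paneth cell genes 0 fell at day 9 and 5 at day 12. Of 7 tuft cell genes 4 fell at day 9, and 5 fell and 1 rose at day 12; of 8 enteroendocrine genes 2 fell, then 3 fell and 1 rose. Of 5 B and plasma cell genes 1 and 2 fell, and of 5 endothelial genes 0 were called.

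**Figure D4:**
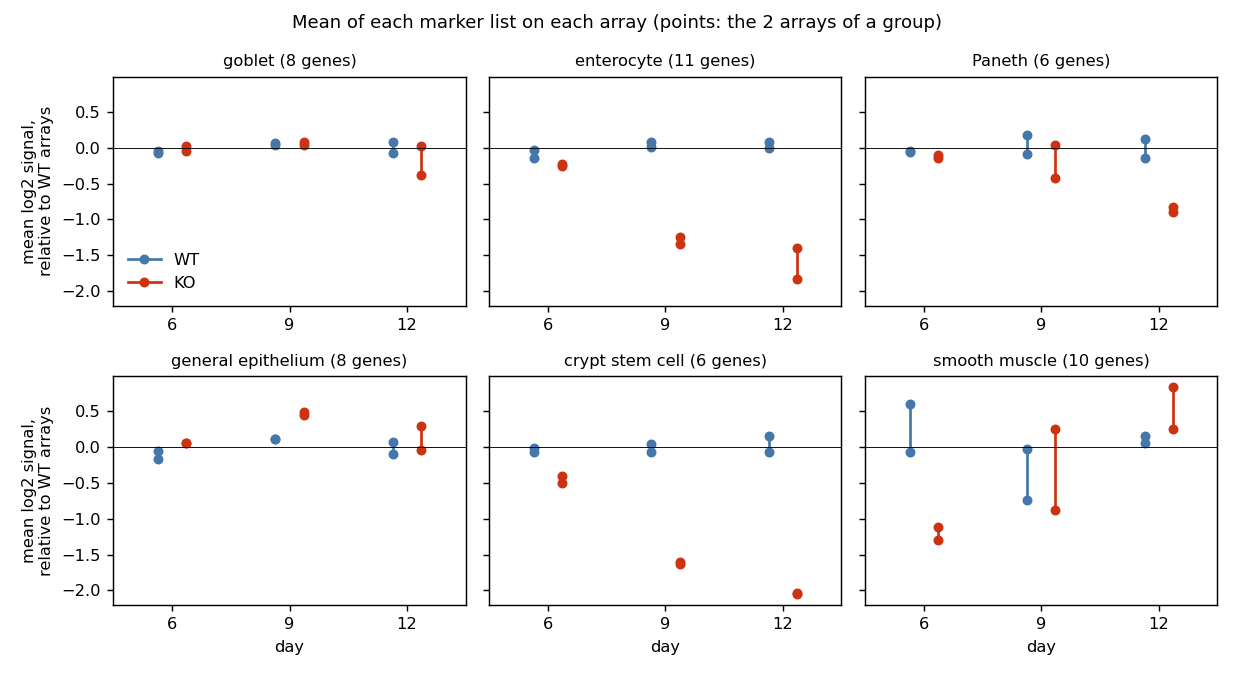
Mean log2 signal of 6 marker lists on each array relative to the mean of the WT arrays (vertical axis) by day (horizontal axis), with WT in blue and KO in red; the 2 points of a group are its 2 arrays, joined by a line. Goblet means stay between -0.38 and 0.08 throughout, while enterocyte and crypt stem cell means are at -1.24 or lower in KO at days 9 and 12.

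The genes whose course was most like that of Fut2 were found by the root mean square (RMS) difference between 2 genes' log2 signals over the 12 arrays, each taken relative to its own WT mean. They were Rdh10, a retinol dehydrogenase (RMS 0.32), Ggh, a hydrolase of folate chains (0.32), the synaptotagmin Syt8 (0.33), the fatty acid receptor Ffar4 (0.35) and the glucose transporter Slc2a1 (0.35). KO minus WT of Rdh10 was 0.28, 2.04 and 2.91 at days 6, 9 and 12, next to 0.11, 1.95 and 2.99 for Fut2. Gcnt3 lay closest to Atl3 (0.12), which shapes the endoplasmic reticulum, and the chloride channel protein Clic4 (0.13), and C1galt1 to the myristoyltransferase Nmt2 (0.09) and to Ttc6 (0.09). B4galnt2 lay closest to Idh3b (0.06) and Idh3g (0.07), both subunits of the mitochondrial isocitrate dehydrogenase. Fut8 lay closest to Dennd2d (0.07) and Twsg1 (0.07), a binding protein of bone morphogenetic proteins. Among the 8 enzymes themselves the closest were Gcnt3 with C1galt1 (0.22) and Fut8 with B4galnt2 (0.24), and Fut2 was 0.91 from Gcnt3, its nearest.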

How the data were processed

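Jejunum of 12 mice was measured on the Affymetrix Mouse Gene 1.0 ST array. Values are the log2 signals that the authors deposited for 35556 probe sets, used as given. Their processing notes list limma and R 3.5 with no role, and how signals were corrected, summarised and normalised is not stated. The platform's annotation gave exactly 1 symbol to 21789 probe sets, several to 1621 and none to 12146; the highest-mean probe set per symbol left 19938 genes. Groups came from the sample titles. A mean per group was fitted over all 12 arrays with limma 3.58.1 (R 4.3.3; lmFit, eBayes, 6 residual and 5.23 prior degrees of freedom), with two-sided tests and Benjamini-Hochberg adjustment over all genes. The fit was also run on simulated data with independent noise and few changed genes. Those settings differ from these data, so the run is not used as support here.

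The 8 members, 14 lists of pathway genes (165 of 176 entries measured, 2 of them matched by gene ID) and 14 marker lists (96 of 101) were chosen with earlier results of these data known. Pathway genes named are up to 3 per list and day: the widest called differences whose KO arrays both lay on one side of both WT arrays. Others, and further days of a named gene, were chosen after their values were seen. Their calls were not checked with single arrays left out. For likeness, predicted genes, small RNAs, receptor segments and odorant receptors were left out. Alternatives covered normalisation, a filter at a mean of 5.3, all probe sets of a gene, each day alone, an intensity trend, the replicate block, an epithelial reference and leaving out each array. With 2 mice a side the smallest exact p is 0.333, so days were tested in limma alone. Precision is limited by the 12 arrays; a difference at 1 day had a median SE of 0.11.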

Additional observations from a re-analysis of the deposited data

Results flagged for a closer look

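The KO minus WT difference of 4 enzymes was not the same at the 3 days, by the moderated F test of genotype by day in limma. The adjusted p was 0.00424 for Fut2, 0.00594 for B4galnt2, 0.0101 for Gcnt3 and 0.00287 for C1galt1. In each of the 4 the difference at day 6 was not called. Fut2 and B4galnt2 had moved by day 9, C1galt1 moved between days 9 and 12, and Gcnt3 differed between days 6 and 12 (0.95, SE 0.18, adjusted p = 0.00457). Groups of 2 mice are too small for a check on outlying samples.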

How the results depend on the processing

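Relative to general epithelial genes Gcnt3 lost its call at day 9 and C1galt1 its call on average. The counts of members called kept within 1.5 times their main value in each alternative run, a loose bound for counts this small. With 1 array left out they were 0 at day 6, 4 to 5 at days 9 and 12, 5 to 6 on average and 4 to 5 for genotype by day. The day 6 difference of Fut2, not called in any run, turned to -0.059 relative to general epithelial genes and ran from -0.061 to 0.28 with 1 array left out. At days 9 and 12 Fut2 was called in every alternative, at 1.58 to 2.31 and 2.5 to 3.48 with 1 array left out.

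Directions also turned in values that were not called. With quantile normalisation B4galnt2 at day 6 was -0.059 and Fut4 at day 9 was 0.040. Relative to general epithelial genes, B4galnt2 at day 6 was -0.16, St6galnac1 at day 9 was -0.16, C1galt1 at day 9 was -0.16, Fut4 was -0.021 at day 12 and -0.11 on average, and St6galnac1 was -0.19 on average. With 1 array left out, B4galnt2 ran from -0.053 to 0.065 at day 6, Fut4 from -0.16 to 0.13 at day 9 and -0.030 to 0.27 at day 12, and B3galt5 from -1.78 to 0.42 at day 9. St6galnac1 ran from -0.13 to 0.036 at day 6, -0.045 to 0.44 at day 9, -0.36 to 0.23 at day 12 and -0.071 to 0.13 on average. The cause was not tested.

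Same-numbered WT and KO mice deviated together with correlations of 0.18, -0.09 and 0.11 at days 6, 9 and 12. Values this weak do not settle whether the numbers pair the mice. With the replicate block all 5 called members kept their calls, with Fut2 at 1.95 (adjusted p = 0.00144) at day 9, and 101 genes in place of 205 were called at day 6. The count of all genes at day 6 ran from 21 to 291 with 1 array left out, and that at day 9 from 3646 to 6542. For genotype by day it was 3685, 2302 relative to general epithelial genes and 2191 to 4667 with 1 array left out. For the change over days in WT it was 4, and 0 to 9 otherwise. Of all calls at day 6, 58.0% were higher, 68.3% with arrays centred on their medians. Relative to general epithelial genes the share of calls that were higher was 14%, 6.37% and 29.8% at days 6, 9 and 12, against 58.0%, 42.3% and 49.9%. Of 75 pairs of a named pathway gene and a day, 61 kept their call with any 1 array left out, an alternative added after seeing the data.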
